A study of Mus musculus with 6 samples.

Results

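The mitosis and chromosome segregation genes are 54 named genes: the mitotic cyclins and kinases, the spindle, kinetochore and checkpoint genes, the chromosomal passenger complex, and the genes of cytokinesis and condensin. They were chosen by name, with earlier results of these data known. Each of the 54 symbols matched 1 row among the 36811 rows of the deposited expression table. RNA sequencing was done on spleen regulatory T cells (Treg), sorted by EGFP expressed from Foxp3, of C57BL/6 mice aged 18 to 21 weeks, with 3 libraries labelled cKO and 3 labelled WT. The cKO mice had the genotype Bach2fl/fl Foxp3EGFP-Cre-ERT2, with floxed alleles of the repressor gene Bach2, and the WT mice had the genotype Bach2+/+ Foxp3EGFP-Cre-ERT2. All mice thus carried EGFP and the Cre-ERT2 recombinase at Foxp3, so that recombination is limited to Foxp3-expressing cells and depends on tamoxifen, a treatment that the labels do not describe. Values are FPKM, fragments scaled for transcript length and library size. Whether each library is from an animal of its own is not in the labels, so a p-value here sets a difference against the spread between libraries, which may be technical.

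Mitosis is driven by cyclin-dependent kinase 1 bound to the A and B cyclins, which starts chromosome condensation and spindle assembly. The chromosomal passenger complex and the spindle checkpoint correct faulty attachments and delay anaphase until each kinetochore is attached to the spindle, and the anaphase-promoting complex with its activator Cdc20 then lets separase cut the cohesin rings. Transcripts of these genes build up late in the cell cycle and are low in resting cells, and in mice effector Treg cycle more than resting Treg do.

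The library labels could not be checked through the targeted gene. Bach2 stood at 7.88, 9.19 and 6.44 FPKM in cKO 1, 2 and 3, against 3.29, 8.25 and 4.80 FPKM in WT 1, 2 and 3, a log2 difference of 0.52 (limma, Benjamini-Hochberg adjusted p = 0.925). The gene value covers the whole transcript, and the labels do not give the deleted exons. Each direction below therefore rests on the labels of the libraries alone. Foxp3, which defines Treg, was present at 5.75 to 9.44 FPKM in cKO and at 5.16 to 7.51 FPKM in WT. The weight of 1 fragment, read from the steps between low values, put the scale at 3755000 to 5415000 fragments in cKO and at 3280000 to 4880000 in WT. This scale is an estimate and need not equal the number sequenced.

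Mitotic transcripts stood higher in the libraries labelled cKO across nearly the whole set, but no member passed the test over all genes. Of the 54 members, 51 reached a mean of 1 FPKM across the libraries and were tested with limma on log2(FPKM + 1). None of the 51 had an adjusted p under 0.05, and their adjusted p-values lay between 0.748 and 0.996, while 3 of all 11979 genes tested passed, or 0.025%. At an unadjusted p under 0.05, 20 members were higher in cKO and 0 lower, where 3.59% of all genes tested were higher and 1.78% lower. The lowest cKO library lay above the highest WT library in 21 of the 51 members, against 6.96% of all genes tested, and the reverse was seen in 0 members, against 3.75%. The log2 difference was above 0 in 49 of the 51, against 55.0% of all genes tested, and its median was 0.57 over the members and 0.03 over all genes. The members were read in the same few libraries and share the level of each library, so these counts are not of separate observations. The list was also chosen with earlier results of these data known. In a bulk measurement such as this a larger share of dividing cells and more transcript per dividing cell cannot be told apart.

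The 3 members under the filter on low values were Espl1, Anln and Ttk, and with no filter the groups did not overlap in 23 of 54 members, against 5.51% of all 17773 genes with a value above 0. Another 4 members, Bub1, Cenpe, Kif15 and Ncapg2, passed the filter although their WT mean was under 1 FPKM. Among the 47 members with a mean of at least 1 FPKM in each group, the groups did not overlap in 20 and 19 were higher at an unadjusted p under 0.05. The shares of all genes under this rule were not computed, so these counts have no like share beside them. With a minimum of 5 FPKM 32 members were left, of which 14 did not overlap and 14 were higher at an unadjusted p, against 6.91% and 3.39% of all genes in that fit.

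The count at an unadjusted p moved with single libraries. It was 12 without cKO 1, 12 without cKO 3 and 11 without WT 3, with 4.64%, 2.89% and 3.10% of all genes tested higher in the same fits. Without cKO 2 the groups did not overlap in 34 members, against 12.3% of all genes tested in that fit. Scaling each library to an equal FPKM sum raised the median log2 difference of all genes to 0.17, and that of the members to 0.72.

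**Figure D1:**
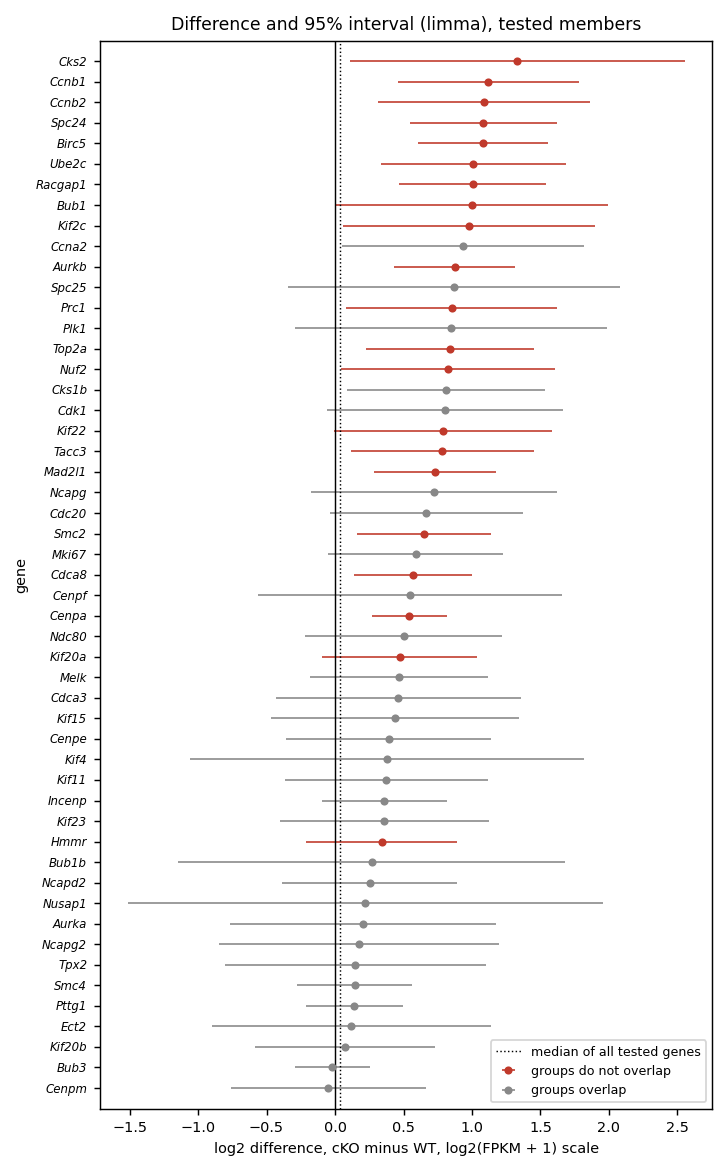
Log2 difference, cKO minus WT, on the log2(FPKM + 1) scale for the 51 tested members, with 95% intervals from limma. Points in red are the 21 members whose groups do not overlap, grey points are members whose groups overlap, and the dotted line is the median of all tested genes at 0.03; 20 of the intervals exclude 0.

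Libraries within a group differed in how high the mitotic genes stood. The mean deviation of the tested members from their gene means was 0.49, 0.05 and 0.35 (log2) in cKO 1, 2 and 3, against -0.20, -0.19 and -0.50 in WT 1, 2 and 3. By this mean each cKO library stood above each WT library, but cKO 2 lay closer to WT 1 and WT 2 than to cKO 1. Over all genes tested the same deviation lay between -0.0021 and 0.041 in cKO and between -0.037 and -0.011 in WT. The differences between libraries in the mitotic genes were thus larger than those over all genes of the table as deposited. Scaling for library size can by itself keep the deviation over all genes small. Of the 54 members, 31 had their highest value in cKO 1, 13 in cKO 3 and 7 in cKO 2. The lowest value lay in WT 3 for 28 members, in WT 2 for 13, in cKO 2 for 6, in WT 1 for 5, and in cKO 1 and cKO 3 for 1 each. cKO 2 exceeded WT 2 in 34 members, the smallest such count between a cKO and a WT library, and cKO 3 exceeded WT 3 in 52, the largest. Within the groups, cKO 1 exceeded cKO 2 in 43 members and WT 1 exceeded WT 3 in 38. The median standard deviation within groups was 0.39 (log2) for the members and 0.30 for all genes tested.

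**Figure D2:**
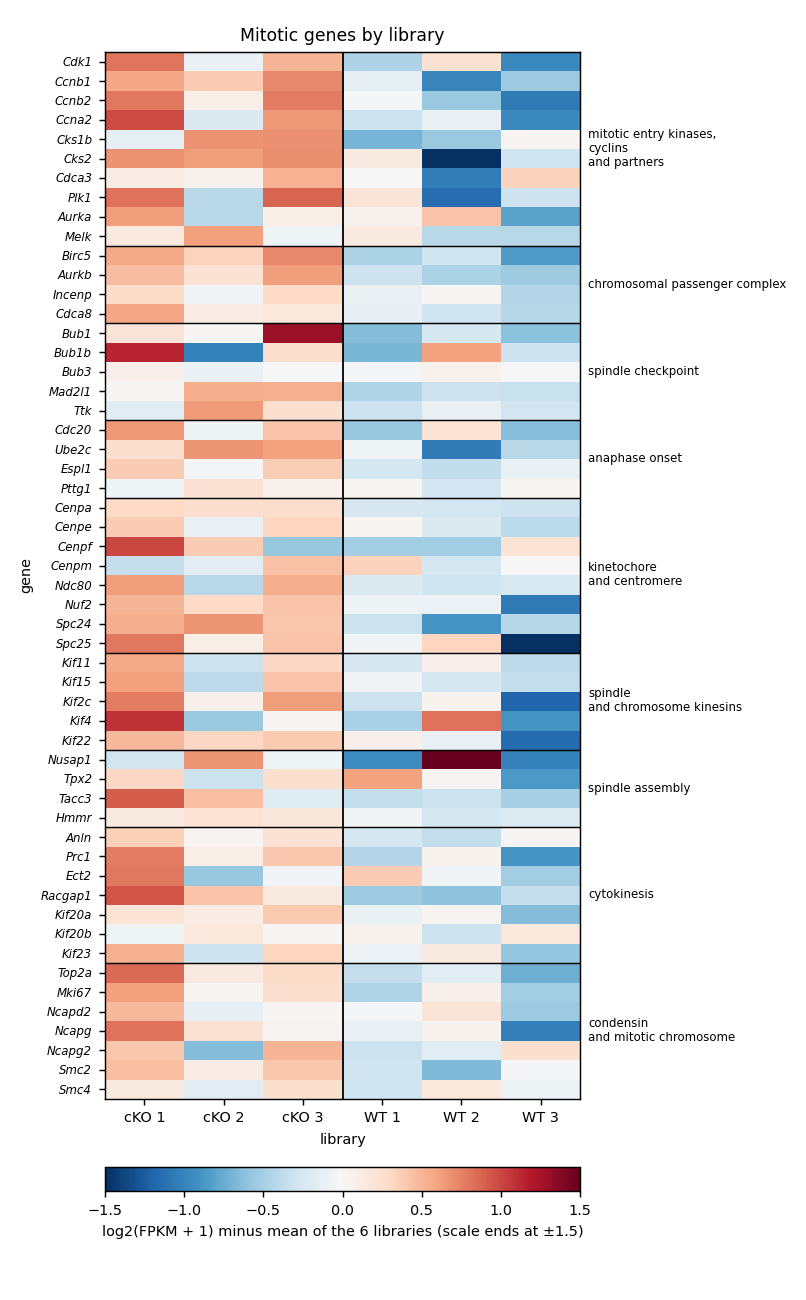
Each of the 54 members (rows, grouped by role) in each library (columns), coloured by log2(FPKM + 1) minus the mean of the 6 libraries, red for higher and blue for lower. The columns cKO 1 and cKO 3 are mostly red, WT 3 is mostly blue, and cKO 2 is mixed, with Bub1b, Ect2 and Ncapg2 in blue.

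Of the cyclins and kinases of mitotic entry, all 10 members had a log2 difference above 0, with a median of 0.83, and 5 were higher at an unadjusted p under 0.05. Ccnb1 (ENSMUSG00000041431), the B cyclin that brings cyclin-dependent kinase 1 into mitosis, stood at 6.45, 5.47 and 7.21 FPKM in cKO 1, 2 and 3, against 3.51, 1.52 and 2.40 FPKM in WT 1, 2 and 3. Every cKO library lay above every WT library, a log2 difference of 1.12 ± 0.276 (SE; limma, adjusted p = 0.846). About 11 to 71 fragments lay behind each value. Ccnb2 (ENSMUSG00000032218), the second B cyclin, stood at 23.9, 14.3 and 23.5 FPKM in cKO, against 13.3, 8.85 and 5.93 FPKM in WT. The groups did not overlap, although cKO 2 and WT 1 lay close together, and the difference was 1.09 ± 0.323 (SE). Cdk1 (ENSMUSG00000019942), the kinase itself, had the highest mean of the role, at 38.2, 19.97 and 31.2 FPKM in cKO, against 15.3, 25.3 and 10.5 FPKM in WT. Here WT 2 exceeded cKO 2, and the 95% interval of the difference, -0.06 to 1.67, held 0. The difference, 0.81, was 0.52 without WT 3.

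The small kinase subunits Cks1b and Cks2 bind cyclin-dependent kinases. Cks1b (ENSMUSG00000028044) stood at 19.0, 34.4 and 34.6 FPKM in cKO, against 12.7, 14.1 and 21.6 FPKM in WT, and WT 3 exceeded cKO 1. Cks2 (ENSMUSG00000062248) stood at 4.70, 4.503 and 4.76 FPKM in cKO and at 2.91, 0 and 1.903 FPKM in WT, with no more than 12 fragments behind any value. Its log2 difference of 1.33 depended on the value listed at 0, and was 0.75 without WT 2, 2.49 with a pseudocount of 0.1 and 0.57 with a pseudocount of 5. Aurka (ENSMUSG00000027496), the kinase of the spindle poles, had the lowest difference of the role at 0.20, with 8.03, 3.38 and 5.30 FPKM in cKO and 5.13, 6.91 and 2.36 FPKM in WT. Its groups overlapped, and the difference was -0.055 without cKO 1 and -0.15 without WT 3. Ccna2, the A cyclin, averaged 15.1 ± 6.21 FPKM in cKO and 7.22 ± 2.34 FPKM in WT (SD, n = 3 each). Plk1, the polo-like kinase, averaged 7.52 ± 3.57 and 3.71 ± 2.02 FPKM in the same order, Melk 6.65 ± 1.93 and 4.52 ± 1.30 FPKM, and Cdca3 9.32 ± 1.91 and 7.01 ± 3.47 FPKM, and these 4 overlapped between the groups.

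All 4 members of the chromosomal passenger complex had a difference above 0, and 3 of them did not overlap. The complex joins the kinase Aurora B to the scaffold Incenp and to the small targeting subunits, survivin and borealin. Birc5 (ENSMUSG00000017716), which encodes survivin, had the smallest p of all members. It stood at 26.8, 22.5 and 29.8 FPKM in cKO, against 12.5, 14.2 and 9.40 FPKM in WT, a log2 difference of 1.08 with a 95% interval from 0.60 to 1.56 (limma, unadjusted p = 0.00118, adjusted p = 0.748). Aurkb (ENSMUSG00000020897), the kinase, stood at 10.9, 9.05 and 12.3 FPKM in cKO, against 5.97, 5.22 and 4.96 FPKM in WT, and Cdca8 (ENSMUSG00000028873), which encodes borealin, at 31.9, 22.9 and 23.6 FPKM, against 19.2, 16.9 and 15.5 FPKM. In each of these 3 genes the lowest cKO library stood above the highest WT library. Incenp (ENSMUSG00000024660) differed least, at 16.6, 13.1 and 16.8 FPKM in cKO and 12.4, 13.7 and 9.67 FPKM in WT, where WT 2 exceeded cKO 2. Its difference was 0.36, and 0.23 without WT 3.

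**Figure D3:**
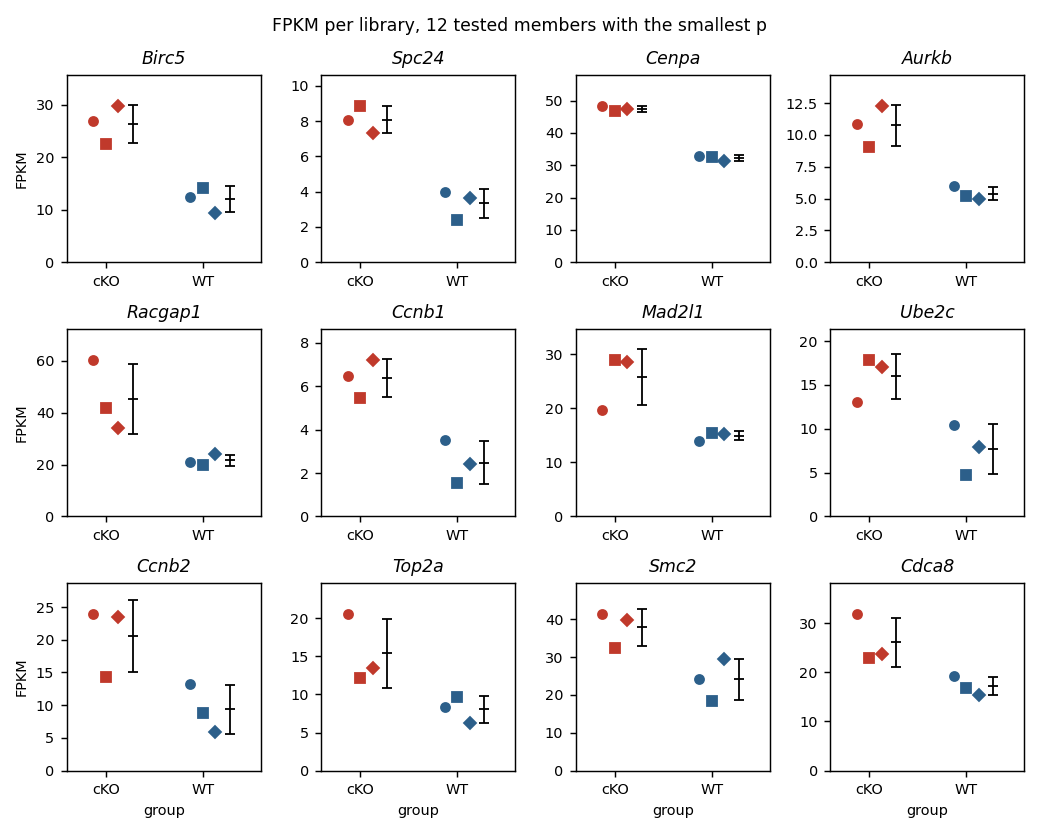
FPKM in each library for the 12 tested members with the smallest p, cKO at the left of each panel and WT at the right. Circles, squares and diamonds are replicates 1, 2 and 3, which were not treated as pairs, and the black bars are the mean ± SD of 3 libraries. In each panel the lowest cKO point lies above the highest WT point, as for Cenpa with 46.7 against 32.96 FPKM.

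The 5 members of the spindle checkpoint differed among themselves. Mad2l1 (ENSMUSG00000029910), the checkpoint protein that binds Cdc20, stood at 19.7, 28.9 and 28.5 FPKM in cKO, against 13.98, 15.4 and 15.3 FPKM in WT, a log2 difference of 0.73 ± 0.186 (SE), and the groups did not overlap. Bub3 (ENSMUSG00000066979), which carries the checkpoint kinase to kinetochores and is also found outside mitosis, had the highest mean of the role and nearly equal groups, at 106, 93.5 and 100.1 FPKM in cKO and 98.97, 105 and 100.01 FPKM in WT. Its difference was -0.02 with a 95% interval from -0.30 to 0.25, and 0.13 with equal sums. Bub1, the kinase, stood at 1.75, 1.43 and 4.91 FPKM in cKO, against 0.538, 1.04 and 0.572 FPKM in WT, without overlap. Bub1b, which encodes BubR1, had the largest within-cKO spread (log2) of the tested members, at 14.5, 2.47 and 7.42 FPKM, and overlapped with WT at 3.35, 9.59 and 4.63 FPKM. The kinase Ttk was under the filter, at 0.664 to 1.89 FPKM in cKO and 0.485 to 0.721 FPKM in WT.

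Of the genes of anaphase onset, Ube2c (ENSMUSG00000001403), the ubiquitin-conjugating enzyme of the anaphase-promoting complex, stood at 13.1, 17.8 and 17.1 FPKM in cKO, against 10.4, 4.76 and 7.93 FPKM in WT. Its groups did not overlap and its log2 difference was 1.01 ± 0.283 (SE; limma, adjusted p = 0.874). Pttg1 (ENSMUSG00000020415), which encodes the separase inhibitor securin, had the second highest mean of all members and the lowest difference of the role, at 136, 166 and 148 FPKM in cKO and 146, 116 and 147 FPKM in WT. Its interval, -0.21 to 0.50, lay below the 1.01 estimated for Ube2c but overlapped the interval of Ube2c, 0.33 to 1.69. The difference between these genes was not tested. The difference of Pttg1, 0.14, was 0.03 without WT 2, 0.07 without cKO 2 and 0.30 with equal sums. Cdc20 averaged 28.8 ± 7.27 FPKM in cKO and 18.1 ± 6.68 FPKM in WT (SD, n = 3 each), and WT 2 at 25.8 FPKM exceeded cKO 2 at 20.9 FPKM. Espl1, which encodes separase, was under the filter, at 0.458 to 0.917 FPKM in cKO and 0.142 to 0.363 FPKM in WT, where 3 to 25 fragments lay behind each value.

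At the kinetochore, Cenpa (ENSMUSG00000029177), the histone H3 variant that marks centromeres, had the smallest spread (log2) of the tested members within each group. It stood at 48.4, 46.7 and 47.3 FPKM in cKO, against 32.96, 32.4 and 31.3 FPKM in WT, a log2 difference of 0.54 with a 95% interval from 0.27 to 0.82 (limma, unadjusted p = 0.00245, adjusted p = 0.753). The difference stayed between 0.48 and 0.70 in the 15 alternatives. The 4 subunits of the Ndc80 complex, which binds microtubules, differed in how their libraries fell. Spc24 (ENSMUSG00000074476) stood at 8.06, 8.86 and 7.33 FPKM in cKO, against 3.98, 2.38 and 3.65 FPKM in WT, and Nuf2 at 4.95, 4.15 and 4.63 FPKM, against 2.96, 2.93 and 1.001 FPKM, and neither overlapped. Spc25 stood at 11.8, 6.81 and 8.90 FPKM in cKO, against 6.17, 8.22 and 1.46 FPKM in WT, and Ndc80 at 12.2, 5.43 and 11.4 FPKM in cKO and 6.33, 5.93 and 6.31 FPKM in WT. In these last 2 genes cKO 2 lay below WT 2. Cenpm (ENSMUSG00000068101) had the lowest difference of all members, -0.05, at 2.83, 3.32 and 5.61 FPKM in cKO and 5.17, 3.04 and 3.86 FPKM in WT, and this value was above 0 without cKO 1, cKO 2 or WT 1 and with equal sums. Cenpe and Cenpf, large kinetochore proteins, averaged 1.53 ± 0.449 and 2.76 ± 1.88 FPKM in cKO, against 0.919 ± 0.297 and 1.41 ± 0.735 FPKM in WT (SD, n = 3 each), with overlap.

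Of the 5 kinesin motors of spindle and chromosomes 2 did not overlap. Kif22 (ENSMUSG00000030677), a chromosome-bound motor, had the highest mean, at 15.01, 13.2 and 14.05 FPKM in cKO, against 11.1, 9.64 and 4.14 FPKM in WT, and a difference of 0.79 whose interval, -0.01 to 1.58, held 0, and which was 0.41 without WT 3. Kif2c, a microtubule-depolymerizing motor of centromeres, stood at 5.90, 3.28 and 5.26 FPKM in cKO, against 2.24, 3.20 and 0.783 FPKM in WT. Kif11 (ENSMUSG00000012443), which pushes the spindle poles apart, stood at 4.66, 2.07 and 3.74 FPKM in cKO, against 2.21, 3.03 and 1.92 FPKM in WT, a difference of 0.38 that was 0.19 without cKO 1 and 0.63 without cKO 2. In all 5 the lowest cKO value was that of cKO 2. Kif4 also had a WT 2 value of 3.59 FPKM, second only to cKO 1 at 4.52 FPKM.

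Of the spindle assembly genes, Tacc3 (ENSMUSG00000037313), which binds microtubules of the spindle, stood at 39.7, 28.7 and 18.1 FPKM in cKO, against 15.9, 16.4 and 14.4 FPKM in WT, without overlap. Its log2 difference was 0.78, and 0.53 without cKO 1. Tpx2 (ENSMUSG00000027469), the activator of Aurora A, had the lowest difference of the role, 0.15, at 8.83, 5.32 and 8.33 FPKM in cKO and 11.01, 7.15 and 3.35 FPKM in WT, and the difference was -0.25 without WT 3. Nusap1, a microtubule-bundling protein, had its highest value in WT 2 at 21.5 FPKM, with 2.81 and 2.62 FPKM in WT 1 and WT 3, against 5.04, 10.6 and 6.01 FPKM in cKO. Its mean FPKM was thus lower in cKO although its log2 difference was 0.22. Hmmr, a spindle-binding protein, did not overlap, at 2.61 to 2.82 FPKM in cKO and 1.75 to 2.22 FPKM in WT.

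Among the 7 cytokinesis genes 4 did not overlap. Racgap1 (ENSMUSG00000023015), the GTPase activator of the central spindle, stood at 60.4, 41.98 and 34.1 FPKM in cKO, against 20.8, 20.03 and 23.95 FPKM in WT, a log2 difference of 1.005 ± 0.225 (SE; limma, adjusted p = 0.846). The cKO libraries spread widely and the WT libraries little. Prc1 (ENSMUSG00000038943), which bundles the microtubules of the midzone, stood at 6.89, 3.93 and 5.14 FPKM in cKO, against 2.40, 3.79 and 1.501 FPKM in WT. Kif20a, a motor of the midzone, stood at 7.57 to 9.45 FPKM in cKO and 4.08 to 7.18 FPKM in WT, and Anln, which encodes anillin, at 0.459 to 0.835 FPKM and 0.117 to 0.447 FPKM, where 2 to 14 fragments lay behind each value. Kif20b (ENSMUSG00000024795) had the lowest difference of the role, 0.07, at 1.54, 1.96 and 1.70 FPKM in cKO and 1.76, 1.13 and 1.96 FPKM in WT. Ect2, the exchange factor that Racgap1 works with, had a difference of 0.12, at 5.03, 1.35 and 2.40 FPKM in cKO and 3.55, 2.40 and 1.44 FPKM in WT, and Kif23, the motor that binds Racgap1, one of 0.36 with overlap.

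Of the chromosome genes, Top2a (ENSMUSG00000020914), the topoisomerase that untangles sister chromatids, stood at 20.6, 12.1 and 13.5 FPKM in cKO, against 8.33, 9.73 and 6.19 FPKM in WT, a log2 difference of 0.84 ± 0.256 (SE), without overlap. Mki67, the proliferation antigen, stood at 7.37, 4.59 and 5.44 FPKM in cKO, against 3.0004, 4.77 and 2.84 FPKM in WT, where WT 2 exceeded cKO 2. The condensin ATPases form a pair in the complex but differed in level. Smc2 (ENSMUSG00000028312) stood at 41.4, 32.3 and 39.8 FPKM in cKO, against 24.2, 18.5 and 29.6 FPKM in WT, without overlap. Smc4 (ENSMUSG00000034349) had the highest FPKM of all members, at 493, 403 and 534 FPKM in cKO and 365, 504 and 428 FPKM in WT, a log2 difference of 0.14 with a 95% interval from -0.28 to 0.56. It was 0.03 without WT 1, 0.06 without cKO 3, 0.26 without cKO 2 or WT 2 and 0.30 with equal sums. The microRNA genes Mir15b and Mir16-2 lie within Smc4 in GENCODE M21 but do not overlap its exons. Whether their sequence adds to its row was not tested. The condensin subunits Ncapd2, Ncapg and Ncapg2 had differences of 0.25, 0.72 and 0.18 with overlap.

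**Figure D4:**
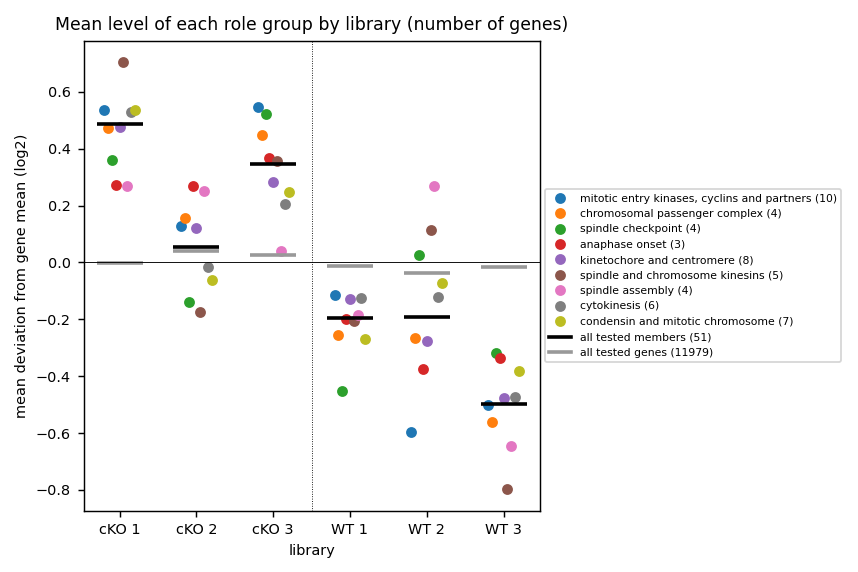
Mean deviation from the gene mean (log2) of the tested members of each role in each library, with the number of genes in brackets; the black bar is the mean of all 51 tested members and the grey bar that of all 11979 tested genes. The black bars stand at 0.49, 0.05 and 0.35 in cKO 1, 2 and 3 and at -0.20, -0.19 and -0.50 in WT 1, 2 and 3, and in WT 2 the spindle assembly, kinesin and checkpoint genes lie above 0.

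Reads of some members and of a neighbouring gene cannot be told apart. Exons of 14 members overlap those of another gene in GENCODE M21, and no source used here states the strand setting. Only protein-coding neighbours were read. Those that overlap exons of Plk1, Kif22, Top2a and Ncapd2 are not protein-coding, and their part in these rows was not tested. Of the neighbours read, Tnnc2 beside Ube2c was listed at 0 in 4 libraries and stood at 1.65 FPKM in cKO 2 and 0.468 FPKM in WT 3. Pdzd11 beside Kif4 had the largest difference above 0, 0.41 (log2; limma, unadjusted p = 0.0143, adjusted p = 0.874), at 42.8 to 45.9 FPKM in cKO and 30.1 to 34.2 FPKM in WT, without overlap. Lcorl beside Ncapg differed by 0.28, 9930104L06Rik beside Cdca8 by 0.23, Elovl1 beside Cdc20 by 0.15 and Exosc9 beside Ccna2 by 0.07, and of these Elovl1 did not overlap. Oip5 beside Nusap1 differed by -0.07, Tmem129 beside Tacc3 by -0.16, Cdc23 beside Kif20a by -0.35 and Rccd1 beside Prc1 by -0.52. Of these Rccd1 did not overlap, at 0.770 to 1.81 FPKM in cKO and 2.05 to 2.59 FPKM in WT. Pseudogenes named after Ccnb1, Ccnb2, Kif4 and Kif22 are annotated, and no source used here says how reads were shared between such copies.

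The promoters of these genes are known for a pair of sequence elements, the CCAAT box bound by NF-Y and the cell cycle genes homology region (CHR) bound by the MuvB core of the DREAM and B-Myb complexes. RefSeq promoter windows on GRCm38.p6, from 250 bases before the start to 50 after it, were found for 47 of the 54 members; Aurkb, Smc4, Tpx2, Spc24, Incenp, Ccna2 and Kif20a had none in the table. Both strands were searched for CCAAT and for the CHR letters TTTGAA or TTCGAA. The CHR letters were present in 37 of 47 members (78.7%), against 21.7% of 27025 genes with a window, and CCAAT in 34 (72.3%), against 41.1%. Both occurred in 31 members (66.0%), against 8.61% of all genes, and CCAAT at least 2 times in 24 (51.1%), against 13.3%. CHR letters that began between 60 bases before and 44 after the start were found in 33 members (70.2%), against 6.79%. CHR letters stood in 14 of the 20 windowed members whose groups do not overlap (70.0%) and in 23 of the other 27 (85.2%), and CCAAT in 14 (70.0%) and 20 (74.1%) of them. These shares were not tested against each other. The median log2 difference was 0.56 over the 34 tested members with CHR letters and 0.76 over the 10 without, and 0.62 over the 32 with CCAAT and 0.48 over the 12 without. The windows of Birc5, Mad2l1, Tacc3, Nuf2, Melk, Pttg1 and Nusap1 hold neither motif. A match here is a run of letters and was not tested as a binding site.

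The 5 windows below are shown because these members do not overlap between the groups, hold both motifs and come from 5 roles. They read 5′ to 3′ along the gene, position 0 is the start, and capitals mark CCAAT and the CHR letters on either strand, so that CCAAT also appears as ATTGG and TTTGAA as TTCAAA.
Ccnb2, chr9:70421505-70421804, minus strand: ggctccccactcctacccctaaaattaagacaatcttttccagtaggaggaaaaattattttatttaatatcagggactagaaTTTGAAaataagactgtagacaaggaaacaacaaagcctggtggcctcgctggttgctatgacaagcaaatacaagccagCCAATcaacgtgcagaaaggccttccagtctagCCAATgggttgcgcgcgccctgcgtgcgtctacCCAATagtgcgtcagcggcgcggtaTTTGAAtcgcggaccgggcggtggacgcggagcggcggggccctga
Cdca8, chr4:124936868-124937167, minus strand: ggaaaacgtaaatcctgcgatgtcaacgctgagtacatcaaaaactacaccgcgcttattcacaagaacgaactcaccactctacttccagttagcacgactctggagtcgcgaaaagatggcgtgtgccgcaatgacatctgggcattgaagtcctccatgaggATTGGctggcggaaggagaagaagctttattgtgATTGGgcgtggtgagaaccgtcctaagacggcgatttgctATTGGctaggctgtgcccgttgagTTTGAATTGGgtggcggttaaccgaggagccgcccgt
Ube2c, chr2:164769679-164769978, plus strand: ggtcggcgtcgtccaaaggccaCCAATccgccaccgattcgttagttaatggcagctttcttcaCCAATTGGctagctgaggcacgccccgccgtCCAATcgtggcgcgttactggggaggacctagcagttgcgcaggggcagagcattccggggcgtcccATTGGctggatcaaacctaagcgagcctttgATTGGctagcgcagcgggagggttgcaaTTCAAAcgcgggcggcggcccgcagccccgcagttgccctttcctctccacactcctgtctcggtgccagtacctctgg
Racgap1, chr15:99651607-99651906, minus strand: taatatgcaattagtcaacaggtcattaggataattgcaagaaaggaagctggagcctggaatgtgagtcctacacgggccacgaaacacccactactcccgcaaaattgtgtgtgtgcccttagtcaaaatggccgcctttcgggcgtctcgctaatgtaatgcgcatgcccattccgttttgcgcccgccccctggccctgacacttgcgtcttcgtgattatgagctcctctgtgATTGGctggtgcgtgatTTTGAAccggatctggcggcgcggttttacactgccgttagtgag
Top2a, chr11:99024140-99024439, minus strand: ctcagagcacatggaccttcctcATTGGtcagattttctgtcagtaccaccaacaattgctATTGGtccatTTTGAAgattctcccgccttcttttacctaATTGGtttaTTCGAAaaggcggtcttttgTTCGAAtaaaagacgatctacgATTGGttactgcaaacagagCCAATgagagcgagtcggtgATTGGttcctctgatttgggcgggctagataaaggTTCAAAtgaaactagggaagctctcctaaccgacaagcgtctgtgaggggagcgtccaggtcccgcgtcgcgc

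Ccnb2 has 3 CCAAT boxes beginning at -87, -54 and -21 and TTTGAA at 4, with another TTTGAA at -167. In Cdca8 TTTGAA at 13 runs into a CCAAT box on the other strand at 18, so the motifs share a base. Ube2c holds 6 CCAAT boxes and TTTGAA at -29, and 2 of its boxes overlap at -186 and -183. Racgap1 has a single CCAAT box at -12 and TTTGAA at 5. Top2a holds 6 CCAAT boxes, with TTTGAA at -23 and -179 and TTCGAA at -140 and -120.

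Other genes of the pathway were read from lists of textbook genes in the same fit. Of 56 other mitotic genes 47 were tested, and 0 passed in either direction (limma, adjusted p over all genes). At an unadjusted p under 0.05, 6 were higher and 0 lower, where 3.59% of all genes tested were higher. The groups did not overlap upward in 8, against 6.96% of all genes tested. The difference was above 0 in 35 of the 47, against 55.0% of all genes tested, and its median was 0.25. Those with the smallest p were Cdca2, which recruits a phosphatase to chromosomes at mitotic exit, at 3.34, 4.04 and 4.30 FPKM in cKO, against 1.74, 1.57 and 1.51 FPKM in WT, and Pbk, a mitotic kinase, at 8.74, 4.16 and 4.61 FPKM, against 2.69, 1.201 and 0.933 FPKM. The third, Pimreg, averaged 2.74 ± 1.17 FPKM in cKO and 0.722 ± 0.115 FPKM in WT (SD, n = 3 each). Each of these 3 had groups that did not overlap. All 48 DNA replication genes were tested, and 0 passed. Against the same shares of all genes, 8 were higher and 0 lower at an unadjusted p, and 13 did not overlap upward. The difference was above 0 in 42 of the 48, and the median was 0.26. Among them Gmnn, which encodes the licensing inhibitor geminin, stood at 30.96, 30.2 and 33.1 FPKM in cKO, against 21.5, 17.6 and 19.6 FPKM in WT. Chaf1a, a chromatin assembly factor subunit, averaged 5.28 ± 0.453 FPKM in cKO and 2.90 ± 0.500 FPKM in WT, and Mcm10 5.68 ± 1.72 and 1.82 ± 1.61 FPKM (SD, n = 3 each).

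Of 22 transcription regulators of the cell cycle 20 were tested. None passed, and 0 were higher and 0 lower at an unadjusted p under 0.05, against 3.59% and 1.78% of all genes tested. The groups did not overlap upward in 1, Rbbp4, and downward in 1, Trp53, against 6.96% and 3.75% of all genes tested. The difference was above 0 in 12, against 55.0% of all genes tested, and the median of the 20 was 0.07. Mybl2, which encodes B-Myb, stood at 5.56, 2.47 and 7.85 FPKM in cKO, against 2.27, 0.532 and 3.47 FPKM in WT, so that cKO 2 lay below WT 3. Rbbp4, a subunit of the MuvB core, averaged 196 ± 20.4 FPKM in cKO and 165 ± 8.25 FPKM in WT, and Trp53 234 ± 37.0 and 281 ± 12.1 FPKM (SD, n = 3 each).

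Markers of other cells of the spleen, some of which divide, were read beside the mitotic genes. The summed erythroid list of 11 genes stood at 278, 503 and 544 FPKM in cKO 1, 2 and 3, against 288, 128 and 259 FPKM in WT 1, 2 and 3. Of its 7 tested markers 6 had a difference above 0, and at an unadjusted p 3 were higher and 1 lower. The haemoglobin genes Hba-a2 and Hbb-bs and the haem synthesis gene Alas2 were higher in every cKO library than in any WT library, the last at 6.51 to 8.06 FPKM in cKO and 0.967 to 4.86 FPKM in WT. The transcription factor gene Gata1 was lower in every cKO library than in any WT library, at 12.7 to 17.5 FPKM in cKO and 18.4 to 36.5 FPKM in WT. The precursor markers Klf1 and Epor were low, at 0.158 to 0.876 FPKM in cKO and 0.143 to 1.53 FPKM in WT. Myeloid markers summed to 418 to 1233 FPKM in cKO and 413 to 490 FPKM in WT, with 10 of 12 tested markers above 0. Of the markers of dividing granulocyte precursors, Elane stood at 6.42, 14.1 and 0 FPKM in cKO and at 0, 0 and 1.62 FPKM in WT, and Mpo at 10.6, 9.36 and 0 FPKM in cKO and at 0.185, 0 and 3.42 FPKM in WT. B cell markers summed to 1279 to 1959 FPKM in cKO and 1128 to 2291 FPKM in WT, and plasma cell markers to 29.9 to 65.8 FPKM and 23.7 to 86.9 FPKM. Germinal centre B cell markers summed to 12.5 to 15.9 FPKM in cKO and 10.4 to 12.7 FPKM in WT, most of it from S1pr2. CD8 and NK cell markers summed to 107 to 133 FPKM in cKO and 83.6 to 106 FPKM in WT, most of it from Nkg7, at 83.3 to 107 FPKM in cKO and 59.6 to 79.2 FPKM in WT. Klrd1 of the same list lay lower in each cKO library than in each WT library, at 0 to 0.546 FPKM in cKO and 1.35 to 3.46 FPKM in WT, and so did Klrb1c. The thymocyte genes Rag1, Rag2 and Ptcra were listed at 0 in all 6 libraries. No marker of these lists passed over all genes, and the part of B, myeloid, CD8, NK or erythroid cells in the mitotic values was not tested.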

How the data were processed

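Treg were sorted by flow cytometry and libraries made with SmartSeq2, per the labels' protocols. The submitters' processing notes name HISAT2, cutadapt and FastQC, without versions, and the builds NCBIM37 and mm9. The authors deposited 1 FPKM table for the 6 libraries, whose name gives cuffnorm. No source used here states the annotation, strand setting or filters. The design text also speaks of reporter mice, whose libraries were not analysed here.

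Identifiers were matched to symbols in GENCODE M21 (31840 of 36811 rows). Whole multiples of a library's fragment weight, within 0.05, were found in 66.7% to 78.6% of low values of genes with 1 transcript, too few for a test on counts, so fragment numbers are approximate. All genes whose mean reached 1 FPKM were fitted with limma 3.58.1 (R 4.3.3), without a block and with limma's trend, on log2(FPKM + 1), a scale that understates the change of low genes. P-values were two-sided and adjusted by Benjamini-Hochberg over all 11979 genes at 0.05. Folds of single values are ratios of FPKM. Libraries of cKO and WT with 11979 genes were simulated, with 200 genes changed. The fit recovered 12.2% of 2-fold and 95.0% of 4-fold changes, with 2.96% and 5.47% of calls false (means of 10 runs). Changed genes had a mean log2(FPKM + 1) above 2, and the change was added on that scale. These recoveries therefore do not cover members with lower means, where a fold in FPKM moves that scale less. Tables were handled with pandas 2.3.3 and numpy 2.4.6 in Python 3.11.15, and figures drawn with matplotlib 3.10.9.

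The members, roles and lists were chosen with earlier results of these data known, so no list was tested. Values in every library are given for the 16 tested members with the smallest p and for the highest mean and the lowest difference of each role. The 3 genes with the smallest p of each other pathway list are named. Members and markers described beyond these were chosen after their values were seen. Alternatives were pseudocounts of 0.1 and 5, no filter, a minimum of 5 FPKM, 3 other scalings, no variance trend, each library left out in turn, and a replicate block. Some marker genes are not reported here.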

Additional observations from a re-analysis of the deposited data

How the results depend on the processing

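No member passed over all genes in any of the 15 alternatives, and the lowest adjusted p of a named member was 0.504 (limma). Of 399 values of named members under the alternatives, 388 kept their direction and 11 turned it. With equal sums Bub3 differed by 0.13 and Cenpm by 0.068. Without 1 library Aurka ranged from -0.15 to 0.47, Bub3 from -0.066 to 0.026, Cenpm from -0.28 to 0.11, Kif20b from -0.069 to 0.17 and Tpx2 from -0.25 to 0.49. The median of the tested members was 0.37 with a pseudocount of 5, which compresses low values by construction, and 0.50 to 0.74 without 1 library. The count of all genes past the threshold was 4 to 15 without 1 library. The members higher at an unadjusted p numbered 11 to 21, and those whose groups do not overlap 23 to 34, in the same fits. With fewer libraries non-overlap is more frequent for every gene, and shares of all genes in some of these fits are given above. The cause of the other shifts was not tested.

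Libraries of 1 replicate number did not deviate together (correlations of -0.060, -0.18 and -0.017, against -0.074 to 0.13 between unlike numbers). With so few libraries these values cannot exclude a pairing, and the labels do not say what the numbers mark. The main fit treated the libraries as unpaired. With the replicate block 1 of all genes passed, and no call of a member changed. In that fit 16 members were higher at an unadjusted p, a count given without the like share of all genes. Depth limits Cks2, Espl1, Anln and Cenpm most, with no more than 25 fragments behind any value.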
